A study of Mus musculus with 10 samples.

Results

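Inhibitory and paired receptors of myeloid cells were examined through 10 genes of the 24538 in the count files, Sirpa, Pirb, Cd200r1, Cd200r4, Cd300a, Cd300lb, Cd300ld, Cd300lf, Lair1 and Pilra, which were listed by name. Paired receptors are small families of related cell surface receptors of myeloid cells, in which some members inhibit the cell and others activate it. Inhibitory members carry in their cytoplasmic tail one or more immunoreceptor tyrosine-based inhibitory motifs (ITIMs), which recruit the phosphatases SHP1 and SHP2 once the tyrosine is phosphorylated. Activating members have a short tail and, in place of a motif, a charged residue in the membrane that binds the adaptor chains DAP12 or the Fc receptor gamma chain. In the lung, contact of alveolar macrophages with epithelial CD200 and with the collectins of surfactant, ligands of CD200R1 and SIRPα, is known to restrain their activation, and in tumors the SIRPα ligand CD47 is known as a signal that blocks phagocytosis.

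RNA was sequenced from metastasis-associated macrophages (MAMs, 5 libraries) and resident alveolar macrophages (RAMs, 5 libraries) of wild type C57BL6/J female mice aged 8 to 10 weeks. MAMs were the CD11B+CD11C- cells of lung metastases under 1 mm in diameter, seeded by tail vein injection of E0771-LG cells, a mouse mammary tumor line, at 6 to 8 weeks of age and pooled from 2 to 4 mice according to the labels. RAMs were the CD11B-CD11C+ cells of normal lungs from mice without tumor cells. Both populations were gated as CD45+F4/80+LY6C-MRC1+ cells of high forward scatter, and both were digested in the presence of the transcription inhibitors alpha-amanitin and actinomycin D. Tissue, tumor and macrophage subset differ together between the groups and cannot be told apart. In RNA from sorted bulk cells, fewer cells of a type and less RNA per cell cannot be told apart either.

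Between 50746305 and 87523247 reads per library were counted on genes. Each of the 10 genes passed the filter on low expression, a mean FPKM of at least 1 in either group, and had at least 732 counts in every library. Levels are given as CPM, which are counts scaled with edgeR's TMM factors to each library's total over the genes that passed the filter. Gene to gene comparisons of levels are given as FPKM, which are also scaled by transcript length. A gene was called differentially expressed with an adjusted p under 0.05 and a fold change over 2. Genes of markers shared by both gates were not all alike. Ly6c2 and Ly6c1 were called higher in MAMs, at 10.5 and 1.67 CPM against 0.143 and 0.117 in RAMs, although both gates were LY6C-. Both passed the filter only through MAMs, with RAM means of 0.282 and 0.160 FPKM. Ly6c1 was near the filter limit, at 1.08 FPKM in MAMs with as few as 9 counts in a MAM library, and its libraries overlapped between the groups. Mrc1 was at 1412 CPM in MAMs and 2625 in RAMs, 1.86-fold lower without overlap. Ptprc and Adgre1 were at 966 and 300 CPM in MAMs and at 1063 and 232 in RAMs, and neither was called. The genes of CD11B and CD11C, which set the gates apart, differed in the direction of the sort. Itgam, the gene of CD11B, was at 6270 CPM in MAMs and 64.3 in RAMs, and Itgax, the gene of CD11C, at 171 and 991.

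A search of the GENCODE transcripts for the ITIM pattern after the predicted membrane segment found it in 6 genes, 3 times each in Sirpa and Pirb, 2 times each in Cd300a, Cd300lf and Lair1 and once in Pilra. It was not found in Cd200r1, Cd200r4, Cd300lb and Cd300ld. CD200R1 is an inhibitory receptor that is known to signal through DOK adaptors in place of an ITIM, and its sequence has 65 residues and 3 tyrosines after the membrane segment. Cd200r4, Cd300lb and Cd300ld encode 13, 33 and 24 residues there with no tyrosine. In the middle of the membrane segment Cd200r4 and Cd300lb encode 1 basic residue each and Cd300ld 1 acidic residue, and the other 7 genes none. The first ITIM of each of the 6 genes is shown as its 18 coding bases, with the codon of the tyrosine in capitals, because it is the feature that these 6 genes share and the other 4 lack.
Sirpa: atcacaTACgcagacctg
Pirb: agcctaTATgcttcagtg
Cd300a: gtggaaTATagcacattg
Cd300lf: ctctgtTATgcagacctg
Lair1: gtgacgTATatccagctg
Pilra: atcgtgTATgcttccatc

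Of the 10 genes, 9 passed an adjusted p of 0.05 in the quasi-likelihood test of edgeR, adjusted by Benjamini-Hochberg over 11571 genes. Higher in MAMs were 6 of them, Cd300ld, Cd300lb, Cd300a, Pirb, Lair1 and Cd200r1, where 28.9% of all genes tested were higher by that criterion alone. Lower in MAMs were 3, Sirpa, Cd200r4 and Cd300lf, against 27.3% of all genes. With the limit on fold change, 4 genes were called higher in MAMs, against 15.3% of all genes, and 0 lower, against 15.1%. The count of 0 became 1 under upper-quartile factors, where Sirpa was called. The libraries of the groups did not overlap for 8 of the 10 genes, and such separation was seen for 44.9% of all genes. The median log2 fold change of the 10 genes was 0.71, and that of all genes tested was -0.02.

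**Figure D1:**
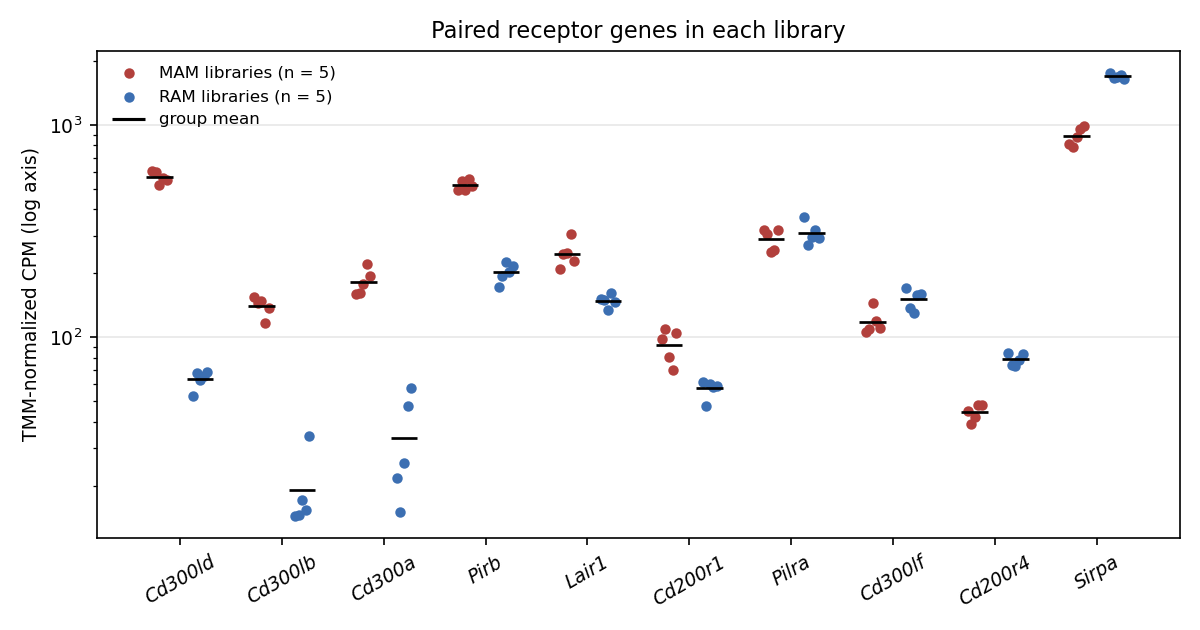
TMM-normalized CPM on a log axis for the 10 receptor genes in each MAM library (red points, n = 5) and each RAM library (blue points, n = 5), with black lines for group means and genes ordered by fold change. Cd300ld lies at 523 to 607 CPM in MAMs and at 52.9 to 68.9 in RAMs, whereas the libraries of Pilra and of Cd300lf overlap between the groups.

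**Figure D2:**
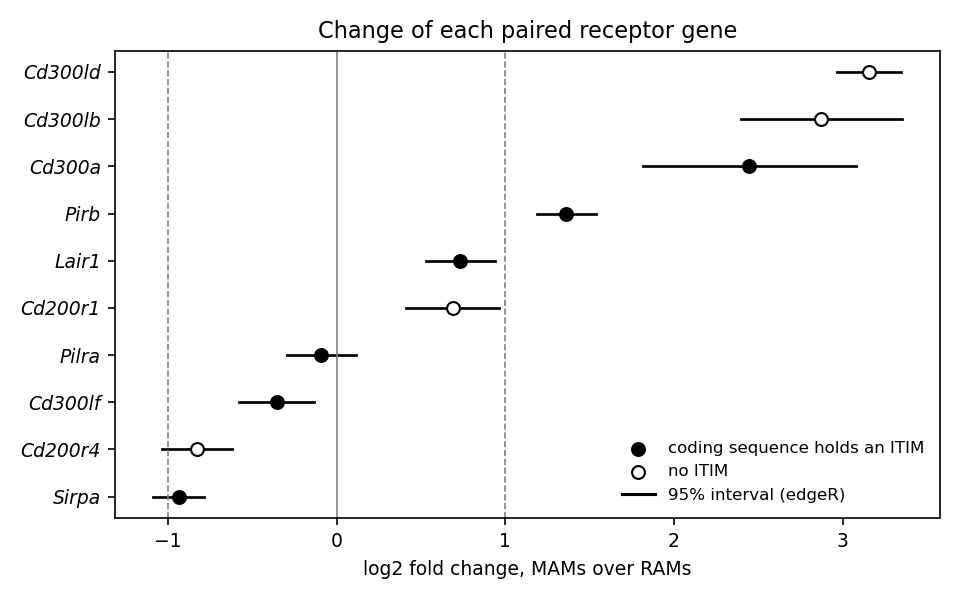
Log2 fold change of each receptor gene, MAMs over RAMs, with its 95% interval from the edgeR fit (line), dashed lines at a 2-fold change, and filled points for the 6 genes whose coding sequence holds an ITIM. Genes with and without an ITIM lie on both sides of 0, from 3.16 for Cd300ld to -0.94 for Sirpa.

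Sirpa encodes SIRPα, the receptor of CD47, which restrains phagocytosis. Its CPM in MAM replicates 1 to 5 were 814, 785, 874, 957 and 985, and in RAM replicates 1 to 5 were 1755, 1662, 1679.8, 1710.1 and 1640.2. Every MAM library was thus below every RAM library. The level was 1.91-fold lower in MAMs, a log2 fold change of -0.94 (SE 0.071, edgeR adjusted p = 2.4e-08), just inside the 2-fold limit. Per length, Sirpa had the highest mean of the 10 genes in both groups, at 232 ± 21.9 FPKM in MAMs and 450.3 ± 9.24 in RAMs (SD, n = 5). In RAMs it made up 51.3% ± 1.60 of the summed FPKM of the 10 genes (SD, n = 5), and in MAMs 22.1% ± 1.86.

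On the FPKM scale the order of the other genes differed between the groups. In MAMs Cd300ld (222) and Pirb (201) came next after Sirpa, and each of these overlapped its neighbor in the order over the 5 libraries. Pilra followed at 115, then Cd300lf, Lair1, Cd300lb, Cd200r1 and Cd300a from 69.1 down to 36.6 with overlap between neighbors, and Cd200r4 was last at 20.6. In RAMs Sirpa stood clear of Pilra (126), which stood clear of Cd300lf (86.6) and Pirb (77.6). Cd200r4 (35.8) and Lair1 (35.5) overlapped, as did Cd200r1 (27.7) and Cd300ld (25.0), and Cd300a and Cd300lb were last at 6.85 and 6.78. Cd300ld was thus among the most abundant receptors in MAMs and among the lower ones in RAMs.

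Pirb, which encodes a receptor that binds MHC class I molecules, moved the other way. In MAMs its 5 libraries held 495, 544, 493.4, 554 and 513 CPM, and in RAMs 172, 195, 226, 203 and 215. No library of one group reached the other. The log2 fold change was 1.36 (SE 0.081, edgeR adjusted p = 1.3e-09), or 2.57-fold higher in MAMs. PirB is also abundant in neutrophils and monocytes, and their marker genes are given below. Pirb shares sequence with the activating Pira genes, so reads that align to more than one of them were not counted, and its values are uncertain to that extent.

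Lair1, an ITIM-bearing receptor for collagens and for complement C1q, rose less. It was at 210.1, 246, 248, 305 and 228 CPM in MAMs and at 152, 149, 135, 162 and 146 in RAMs. The ranges did not overlap, and the log2 fold change was 0.73 (SE 0.096, edgeR adjusted p = 9.7e-06), under the 2-fold limit.

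Cd300a encodes an ITIM-bearing receptor for phospholipids exposed on dying cells. Its MAM libraries held 159, 161, 178, 222 and 193 CPM and its RAM libraries 21.8, 15.1, 25.7, 47.5 and 57.8. The groups lay far apart, although the RAM libraries varied among themselves with a coefficient of variation of 54.2%, the largest of the 10 genes in either group. RAM replicates 4 and 5 were the high ones. In RAM replicates 4 and 5 the summed CPM of 8 recruited macrophage markers was 417 and 428, against 345 to 451 in the other RAM libraries. The sum of 8 monocyte markers was 1559 and 2285, against 1307 to 1979, and that of lymphocyte markers 9.43 and 20.9, against 4.87 to 11.1. The monocyte sum in RAMs was mostly Fn1, at a mean of 1678 CPM, with Ccr2 next at 14.0, so it follows Fn1 and shows little of the other markers. RAM replicate 5 was thus the highest RAM library for the last 2 lists, and their part in the Cd300a level was not tested. The log2 fold change was 2.45 (SE 0.296, edgeR adjusted p = 4.3e-06), and it stayed between 2.25 and 2.73 with any 1 library left out.

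Cd300lf also encodes an ITIM-bearing lipid receptor of the same family but was lower in MAMs. The MAM libraries held 106, 109.7, 145, 119 and 111 CPM, and the RAM libraries 169.7, 137, 130.5, 158 and 159.6. MAM replicate 3 lay above RAM replicates 2 and 3, so the groups overlapped. The log2 fold change of -0.35 passed the test (SE 0.104, edgeR adjusted p = 0.0089) but was 1.28-fold in size. An exact permutation test over the 10 libraries gave p = 0.0238 (two-sided). Cd300lf lies across the gene Rab37 on the opposite strand, and the strand setting of the counting is not given in the sources used here, so reads of the pair may be mixed.

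Pilra, the inhibitory member of the PILR pair, was the gene whose difference did not pass the test. MAM libraries held 318, 305, 253, 258 and 321 CPM and RAM libraries 367, 273, 295, 319 and 294, with wide overlap. The log2 fold change was -0.09, with a 95% interval from -0.30 to 0.12 (edgeR adjusted p = 0.45). Under upper-quartile factors it was -0.26 and passed the test. Pilra overlaps Zcwpw1 on the opposite strand.

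The 2 CD200 receptor genes changed in opposite directions. Cd200r1, the inhibitory receptor, was at 98.0, 109.2, 80.3, 69.7 and 104.6 CPM in MAMs and at 61.8, 47.4, 60.0, 58.5 and 59.1 in RAMs. Every MAM library exceeded every RAM library, by a narrow margin for MAM replicate 4. The log2 fold change was 0.69 (SE 0.128, edgeR adjusted p = 3.0e-04). Cd200r4, a short-tailed relative of the activating type, was at 45.0, 39.1, 42.1, 47.7 and 47.7 CPM in MAMs and at 84.6, 73.9, 73.4, 78.0 and 83.7 in RAMs. It was 1.78-fold lower in MAMs without overlap, a log2 fold change of -0.83 (SE 0.097, edgeR adjusted p = 2.9e-06). Of the summed FPKM of the pair, Cd200r4 took 32.4% ± 5.68 in MAMs and 56.5% ± 2.18 in RAMs (SD, n = 5). The libraries of the groups did not overlap in this share (exact permutation test, two-sided, p = 0.00794, adjusted p = 0.00794 over 2 shares). That is the smallest p that 10 libraries split 5 against 5 allow. Because the 2 genes each separated the groups in opposite directions, their share had to separate them too, and its test adds no further support. Per length, Cd200r1 was the higher of the pair in MAMs, at 43.7 FPKM against 20.6, and the lower in RAMs, at 27.7 against 35.8.

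The activating-type genes of the CD300 family showed the largest changes of the 10. Cd300ld, whose product pairs with the Fc receptor gamma chain, held 607, 602, 523, 564 and 549 CPM in MAMs, compared with 52.9, 67.7, 63.2, 65.7 and 68.9 in RAMs. The gap between the groups was many times their spread. The gene was 8.93-fold higher in MAMs, a log2 fold change of 3.16 (SE 0.088, edgeR adjusted p = 2.7e-13). Cd300lb, whose product pairs with DAP12, held 155, 146, 148, 116 and 137 CPM in MAMs and 14.4, 14.5, 17.1, 15.3 and 34.4 in RAMs. RAM replicate 5 stood above the other RAM libraries, and all RAM libraries were below all MAM libraries. The log2 fold change was 2.88 (SE 0.224, edgeR adjusted p = 3.2e-08), and 3.19 without RAM replicate 5.

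Among the 4 CD300 genes examined, the share of Cd300lb and Cd300ld differed between the groups. Cd300lb and Cd300ld together took 71.8% ± 3.37 of the FPKM of Cd300a, Cd300lb, Cd300ld and Cd300lf in MAMs and 25.4% ± 3.34 in RAMs (SD, n = 5). MAM libraries ran from 67.7% to 75.3% and RAM libraries from 20.2% to 28.2% (exact permutation test, two-sided, p = 0.00794, adjusted p = 0.00794 over 2 shares). The test uses the same genes and libraries as the tests of the single genes, so it is not independent of them. The size of this difference depends on the genes counted. With Cd300c2 and Cd300e, other activating receptors of the family, added after the values were seen, the activating genes took 78.5% ± 1.71 in MAMs and 61.7% ± 1.85 in RAMs (SD, n = 5), and the difference was 16.8 in place of 46.4 percentage points. Over all 10 genes, the 4 without an ITIM held 31.9% ± 2.16 of the summed FPKM in MAMs and 10.8% ± 0.627 in RAMs (SD, n = 5), a split made after the values were seen and given without a test. The sum itself ran from 1020 to 1083 FPKM in MAMs and from 834 to 902 in RAMs.

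**Figure D3:**
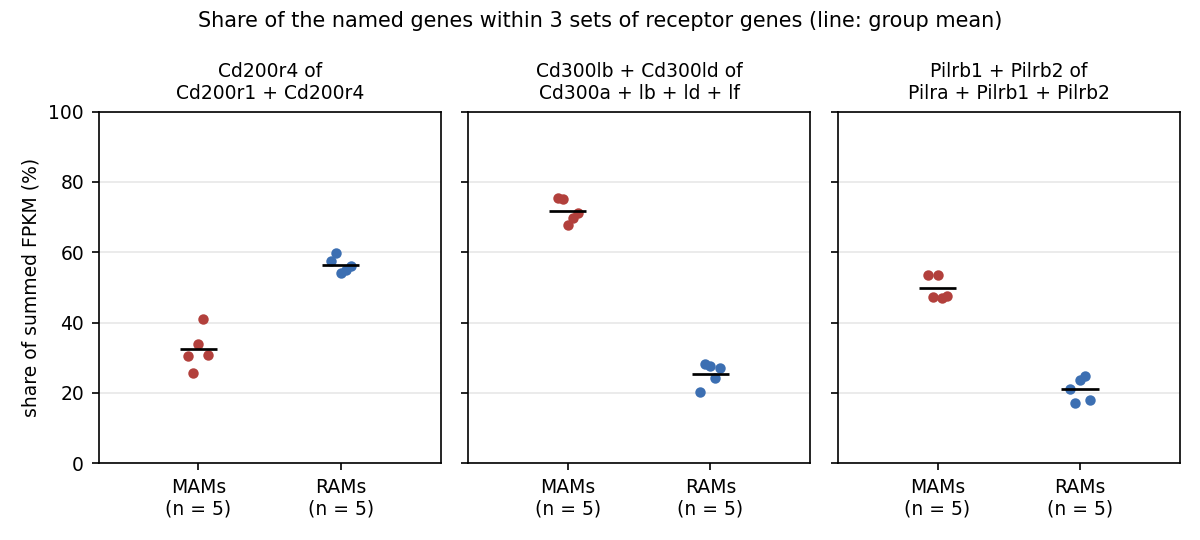
Share of the summed FPKM, in percent, taken in each library (points, n = 5 per group, line for the group mean) by Cd200r4 of the CD200R pair, by Cd300lb and Cd300ld of the 4 CD300 genes examined, and by Pilrb1 and Pilrb2 of 3 PILR genes. Cd200r4 has a mean of 56.5% in RAMs and 32.4% in MAMs, Cd300lb and Cd300ld of 25.4% and 71.8%, and the Pilrb genes of 20.97% and 49.8%.

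The 4 CD300 genes examined lie in a cluster on chromosome 11 with other genes of the family, while Cd300lg lies outside it on the same chromosome, from 102041509 to 102055620 (log2 fold change 0.54, edgeR adjusted p = 0.20). On GRCm38, Cd300a spans 114890041 to 114904654 on the plus strand. On the minus strand follow Cd300lb (114922781 to 114934386), Cd300ld (114982274 to 114989922), Cd300c2 (114996721 to 115001880), Cd300e (115051917 to 115062177) and Cd300lf (115116214 to 115133992). The 3 genes that were called higher in MAMs start within 99.9 kb of each other. Cd300c2, which encodes another activating receptor and starts 111.8 kb from Cd300a, was at 119 (MAMs) and 120.3 CPM (RAMs), with a log2 fold change of -0.01 (edgeR adjusted p = 0.94). Cd300e, at 14.7 and 16.3 CPM, did not pass the test either (log2 fold change -0.14, edgeR adjusted p = 0.80). Cd300c, which starts between Cd300lb and Cd300ld, was not tested, with at most 5 counts in a MAM library and 102 in a RAM library. Cd300ld3, beyond Cd300ld, was not tested either, as its mean FPKM was 0 in both groups. It had 41 to 147 counts in MAMs and 2 to 12 in RAMs, or 1.83 and 0.0964 CPM, without overlap. Cd300ld5 had 0 counts in every library but a mean FPKM of 2.95 in MAMs and 0.00821 in RAMs. The CD300 genes are similar in sequence, and reads that could belong to more than 1 of them were not counted.

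**Figure D4:**
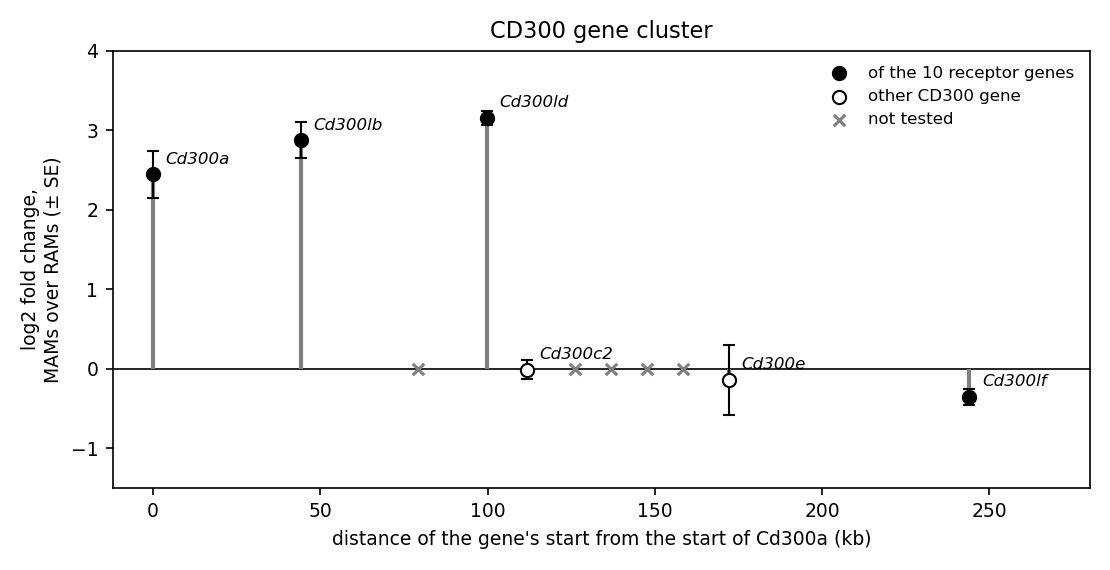
Log2 fold change, MAMs over RAMs, with its standard error, of the CD300 genes of the cluster against the distance of their start from that of Cd300a in kb, with filled points for the 4 genes of the 10 examined, open points for other family genes tested and crosses for genes not tested. The first 3 points stand at 2.45, 2.88 and 3.16, and the genes tested beyond Cd300ld lie between -0.35 and -0.01.

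The other 6 genes lie apart from this cluster. Sirpa (ENSMUSG00000037902.18) is on chromosome 2 from 129592835 to 129632228. Pirb (ENSMUSG00000058818.13) and Lair1 (ENSMUSG00000055541.17) are on chromosome 7, from 3711409 to 3720391 and from 4003402 to 4063204. The CD200 receptor genes are neighbors on chromosome 16, Cd200r1 (ENSMUSG00000022667.18) from 44765736 to 44794978 and Cd200r4 (ENSMUSG00000062082.16) from 44811733 to 44839150. Pilra (ENSMUSG00000046245.13) is on chromosome 5 from 137821952 to 137836281. Positions are those of GENCODE M21.

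RefSeq promoter sequences (GRCm38.p6, 250 bases before to 50 after the start) were matched for 8 of the 10 genes, and Sirpa and Cd200r1 were not matched. The letters GAGGAAGT, a site of the type bound by the myeloid factor PU.1, were found on either strand in 3 of the 8, Cd300ld, Pirb and Cd300lf, and in 3.20% of all 32851 promoters. They begin 143 bases before the start in Cd300ld, 120 before it in Pirb and at the first transcribed base in Cd300lf. The 3 genes thus include 2 that were higher and 1 that was lower in MAMs. The interferon response letters GAAANNGAAA were found in the promoter of Pilra and in 3.44% of all promoters. These are matches of letters only. The 250 bases before the start of Cd300ld (chr11:114989887-114990136, minus strand) and Pirb (chr7:3720383-3720632, minus strand), the 2 genes called higher that hold the PU.1 letters, are shown with those letters in capitals.
Cd300ld: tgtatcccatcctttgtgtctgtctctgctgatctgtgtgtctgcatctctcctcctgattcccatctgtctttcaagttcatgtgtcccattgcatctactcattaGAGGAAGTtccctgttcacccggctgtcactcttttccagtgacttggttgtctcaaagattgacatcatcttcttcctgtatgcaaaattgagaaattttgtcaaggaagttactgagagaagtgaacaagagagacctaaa
Pirb: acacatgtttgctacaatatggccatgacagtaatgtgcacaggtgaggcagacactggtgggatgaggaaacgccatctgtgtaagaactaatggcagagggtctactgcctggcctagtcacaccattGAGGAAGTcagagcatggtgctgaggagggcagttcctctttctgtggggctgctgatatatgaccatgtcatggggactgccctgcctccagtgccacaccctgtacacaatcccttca

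The nearest relatives outside the 10 genes were taken from a list of 34 family genes, 23 of them in the count files and 11 tested. Of these, 4 were higher with an adjusted p under 0.05 and 1 lower, with 3 called higher and 1 called lower and a median log2 fold change of 0.01. For this and the following lists, the shares of all genes tested were 15.3% called higher and 15.1% called lower. Pilrb1 and Pilrb2, the activating partners of Pilra, were at 58.1 and 108.9 CPM in MAMs and at 8.96 and 47.4 in RAMs. Their log2 fold changes were 2.70 (edgeR adjusted p = 7.1e-09) and 1.20 (edgeR adjusted p = 2.5e-05). Of the summed FPKM of Pilra, Pilrb1 and Pilrb2, the Pilrb genes took 49.8% ± 3.40 in MAMs and 20.97% ± 3.37 in RAMs (SD, n = 5). Pilrb2 and this share were chosen after the values were seen. Lilrb4a, an ITIM-bearing relative of Pirb, rose by 1.75 on the log2 scale, from 436 to 1469 CPM (edgeR adjusted p = 1.1e-10), whereas Lilra5, an activating relative, was at 191 CPM in RAMs and 7.49 in MAMs (log2 fold change -4.67, edgeR adjusted p = 1.4e-10). Sirpb1a and Sirpb1b, the activating relatives of Sirpa, did not pass the test, with log2 fold changes of 0.01 and -0.05. Of the Pira genes, Pira2 and Pira6 are named after their values were seen. Pira2 had a log2 fold change of 0.78 (edgeR adjusted p = 0.0065). Pira6 went the other way from Pirb, at 25.6 CPM in MAMs and 51.4 in RAMs without overlap. It was not tested, as its mean FPKM was 0.0229 in MAMs and 0.0174 in RAMs. The Pira and Pilr genes are close copies. Pira4 had 0 counts in all libraries but a mean FPKM of 16.1 in MAMs, so the deposited counts and FPKM assign reads of these copies differently.

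Ligand genes were examined in the macrophages themselves, since several ligands also act from neighboring cells that were not sampled. Of 19 ligand genes, 13 were tested, 11 of them called higher in MAMs and 1 lower, against 15.3% and 15.1% of all genes. Among the 11, Col1a1, Col4a1, Angptl2 and Pianp passed the filter only through MAMs. Their RAM means were 0.057, 0.063, 0.368 and 0.271 FPKM, and the libraries of Col1a1 overlapped between the groups. Cd47 was at 362 CPM in MAMs and 558 in RAMs (log2 fold change -0.62, edgeR adjusted p = 1.2e-06), so both Sirpa and its ligand gene were lower in MAMs. Cd200 was at 9.70 and 35.9 CPM (log2 fold change -1.89, edgeR adjusted p = 5.7e-04). The largest rises were those of C1qa, C1qb and C1qc, which encode complement C1q, a ligand of LAIR1, at log2 fold changes of 6.81, 6.78 and 6.63. The MHC class I genes H2-K1, H2-D1 and B2m, whose products bind PirB and which were chosen after their values were seen, rose by 2.48, 1.93 and 2.08.

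Downstream of the ITIM, 13 signaling genes were tested, of which 9 were higher and 2 lower with an adjusted p under 0.05, and 3 called higher and 0 lower. Ptpn6, the gene of SHP1, was at 200.4 CPM in MAMs and 202 in RAMs (log2 fold change -0.02, edgeR adjusted p = 0.91). Ptpn11, the gene of SHP2, rose by 0.63 and Inpp5d, which encodes the lipid phosphatase SHIP1, by 0.76. Dok2 and Dok1, which encode the adaptors of CD200R1, rose by 2.93 and 1.58, from 17.8 to 136 CPM and from 5.33 to 15.9 CPM. Fyb, an adaptor gene whose product associates with SIRPα, had the largest change, at 6.37. Across these genes the median log2 fold change was 0.63.

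On the activating side, 12 genes were tested, with 6 higher and 3 lower at an adjusted p under 0.05, 1 called higher and 1 called lower, and a median log2 fold change of 0.14. The adaptor genes Tyrobp (DAP12) and Fcer1g (the Fc receptor gamma chain) were at 843 and 1802 CPM in MAMs and at 719 and 914 in RAMs, with log2 fold changes of 0.23 (edgeR adjusted p = 0.026) and 0.98 (edgeR adjusted p = 6.9e-09). Fcer1g was thus just under the 2-fold limit, and the libraries of Tyrobp overlapped. Hcst, which encodes the adaptor DAP10, was at 5.55 and 8.37 CPM and did not pass the test. Syk, the kinase that these adaptors recruit, was lower by a log2 fold change of -0.21 (edgeR adjusted p = 0.0081). Blnk, an adaptor gene that passed the filter only through MAMs (51.6 FPKM, against 0.729 in RAMs), rose by 5.99. Card9, which acts after Syk, had a log2 fold change of -1.12.

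Genes of other inhibitory receptors went both ways. Of 16 genes, 14 were tested, 6 called higher and 4 called lower in MAMs. Among the 6, Pecam1 and Pdcd1 passed the filter only through MAMs, with RAM means of 0.667 and 0.0123 FPKM. Cd72 rose from 2.98 to 165 CPM (log2 fold change 5.79) and Ceacam1 from 9.80 to 296 CPM (log2 fold change 4.92). The 4 called lower were Cd22 (log2 fold change -2.92), Siglece (-2.17), Cd33 (-2.08) and Klrb1b (-1.70), named after their values were seen. Pdcd1, which encodes PD-1, had at most 2 counts in any RAM library and a mean of 3.001 CPM in MAMs. Under the rule for the most similar profiles, Cd300ld correlated over the 10 libraries best with Slfn5, C1qb and Thbs1 (Pearson's r of log2 CPM 0.999 for each), and Sirpa with Hebp1, Ddx46 and Pole (0.997, 0.996 and 0.995). The libraries form 2 groups that lie far apart for each of these genes.

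Markers of cell types moved with the groups. All 8 markers of recruited macrophages, among them Itgam, and all 8 of monocytes, led by Fn1, were called higher in MAMs, with sums of 10071 to 10952 and 4584 to 11365 CPM against 345 to 451 and 1307 to 2285 in RAMs. Of 10 alveolar macrophage markers, led by Chil3, 9 were called lower, with sums of 416 to 798 CPM in MAMs, against 10755 to 13436 in RAMs. Itgam, and Itgax among the alveolar markers, are genes of the gate, so the sort set their direction. Ccr2 is on both the recruited macrophage and the monocyte list. Neutrophil markers, led by Csf3r, had sums between 146 and 323 CPM in MAMs and between 140.0 and 204 in RAMs, with 4 of 6 tested called higher and 1 lower. The sum was mostly Csf3r and Mmp8 in both groups, so it shows little of the other markers. S100a8 had a mean of 4.12 CPM in MAMs and 1.89 in RAMs, and Elane was at 0 counts in every library. Mmp9 was called higher without overlap, with means of 18.97 CPM (MAMs) and 0.252 (RAMs). It passed the filter only through MAMs, with a RAM mean of 0.113 FPKM. The gene called lower was Cxcr2, at 7.41 and 31.2 CPM, and its libraries overlapped. Apart from Csf3r, these genes were named after their values were seen. Dendritic cell markers had sums of 221 to 275 CPM in MAMs, against 26.1 to 37.9 in RAMs. In MAMs the sum was mostly Bst2, at a mean of 246 CPM against 11.5 in RAMs, so it shows little of the other markers. Of 3 tested, 2 were called higher and 1 lower in MAMs. The latter was Clec9a, named after its values were seen, at 1.01 CPM in MAMs and 19.4 in RAMs. Epithelial and tumor cell markers, a joint list led by Krt19, summed to 16.7 to 25.7 and 609 to 734 CPM. Of 7 tested, 6 were called lower in MAMs and 0 higher. The RAM sum was mostly Krt19, Cdh1 and Epcam, with means of 436, 131 and 76.8 CPM. Sftpc, Scgb1a1 and Sftpb had RAM means of 14.4, 10.4 and 4.28. Krt8, below the filter and not tested, went the other way without overlap. MAM libraries held 34 to 148 counts of Krt8 and RAM libraries 0 to 12. Apart from Krt19, these genes were named after their values were seen. Markers of lymphocytes (most abundant Cd4), stroma and endothelium (Kdr), mast cells and basophils (Gata2) and erythrocytes (Alas2) summed to at most 69.0 CPM in any library. The part of other cell types in the receptor levels was not tested.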

How the data were processed

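The authors aligned paired reads to GRCm38/mm10 with TopHat2 2.0.13 and counted those mapping uniquely with HTSeq 0.6.1 on UCSC RefGene models. The deposited counts were not normalized. The authors also deposited FPKM values from Cufflinks 2.2.1. Lines naming no gene, 54.6% to 64.1% of each count file, were left out. The 11571 genes that reached a mean FPKM of 1 in either group and had a count above 0 were tested with edgeR 4.0.16 in R 4.3.3 (TMM factors, quasi-likelihood test, Benjamini-Hochberg adjustment). The fold and FDR limits are those of the study, which used DESeq2. Standard errors are the log2 fold change over the root of F.

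The receptors and lists were chosen with earlier results of these data known. Named beside the 10 genes were key ligands and signaling genes, the 3 largest called changes of each list, sorting markers and the most abundant marker of each cell type. Membrane segments were the most hydrophobic window of 19 residues after the first 60 (Kyte-Doolittle), in GENCODE M21 transcripts. An ITIM was serine, isoleucine, valine or leucine, any residue, tyrosine, any 2 residues, then isoleucine, leucine or valine. Protein sequences were not used here.

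Libraries were grouped by their titles, and no 2 libraries of a group agreed within sampling noise. The study states that each sample is a mouse or a pool of metastases. At this depth counting error is small, but no molecular identifiers were used, so reads are not independent molecules. The alternatives were DESeq2 1.42.0, RLE and upper-quartile factors, other filters, a replicate block, limma 3.58.1 on log2 FPKM, leaving out each library, and testing for more than a 2-fold change. In simulated counts, where 200 of 11571 genes were changed, edgeR called 85.5% of these and 5 others by adjusted p alone. In the data 28.9% of genes were higher and 27.3% lower by that limit. The simulation thus checks that the code works and does not give the error rates of these data. Figures were drawn with matplotlib 3.10.9.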

Additional observations from a re-analysis of the deposited data

Results flagged for a closer look

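Dixon's test for a single distant value was run on 24 groups of 5 libraries, the 10 genes and 2 shares in MAMs and in RAMs, and 2 groups exceeded its 95% critical value of 0.710. Chance gives about 1 such group in 20. Cd300lb in RAM replicate 5 was at 34.42 CPM, and the next highest RAM library was at 17.1. Cd200r1 in RAM replicate 2 was at 47.36 CPM, and the next lowest RAM library was at 58.5. For neither gene did the distant library reach the range of MAMs. The cause was not tested for either.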

How the results depend on the processing

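The count of genes called higher in MAMs was 4 under each of the 19 alternatives, and no log2 fold change of the 10 genes reversed. Upper-quartile factors shifted the median of all genes by -0.16 on the log2 scale and changed the split of calls from 1766 higher and 1745 lower to 1555 and 2058. Under them 1 receptor, Sirpa (-1.10), was called lower, Pilra passed the test, 1 gene of inhibitory signaling and 2 of activating signaling were called lower. With edgeR's own filter or with none, which test 13854 and 18035 genes, 5 other family genes were called higher and 2 lower, and 2 ligands lower. A test against a fold change of 2 left only the 4 genes called higher past the threshold. Without 1 library, the log2 fold change of Cd300lb ran from 2.78 to 3.19 and that of Cd300a from 2.25 to 2.73. Likewise the difference in the Cd200r4 share ran from -26.2 to -22.4 percentage points and that in the Cd300lb and Cd300ld share from 45.1 to 47.4. The latter was 39.1 with CPM in place of FPKM, and 16.8 with Cd300c2 and Cd300e added, an alternative chosen after seeing the data. Same-numbered libraries of the groups did not deviate together (correlations from -0.037 to 0.029), so the libraries were treated as unpaired. The correlations cannot tell whether same-numbered samples were handled together. With the replicate number as a block, 4 receptors were called higher and 0 lower, and no receptor changed its side of the threshold.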
